A study of Mus musculus with 56 samples.

Results

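The genes described here are 10 mouse genes of amino acid transport and of the integrated stress response, read in OVA:Kb-specific CD8+ T cells (T cells with fetus/graft specificity, TFGS) of mice that met the antigen on a skin graft, in pregnancy, in both ways or not at all. They were chosen by name: the transporter genes Slc7a5, Slc3a2, Slc1a5 and Slc38a2, the transcription factor genes Atf4 and Ddit3, the metabolic and regulatory targets Asns and Trib3, and the inhibitors of mTORC1 signalling Sesn2 and Ddit4. The count table held 55359 genes, and the 10 symbols matched 11 of them, since a second entry named Ddit3 had no count in any of the 56 libraries and was not used. All 10 genes passed the filter on low counts, which left 19657 genes to test.

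All mice were C57BL/6 females of 8 to 12 weeks when obtained. The methods give 200 live cells per sample and subset, sorted from spleen and lymph nodes for SmartSeq2 libraries. Libraries summed here as 1 sample may each hold such a sort. Naive mice had no graft and no pregnancy (3 samples). Sensitized mice had received a skin graft from 2W-OVA.BALB/c donors, which carry the OVA antigen (4 samples). N+P mice were sampled after delivery, having been mated without an earlier graft to 2W-OVA.BALB/c males, and their cells were split into N+P C1 (PD1-negative, 3 samples) and N+P C5 (PD1+CD73+, 3 samples). S+P mice had received such a graft before the same mating, and their cells were split into S+P C4 (PD1-negative, 6 samples), S+P C5 (PD1+CD73+, 6 samples) and S+P C7 (PD1+CD73-negative, 5 samples). By the paper's flow cytometry times, S+P mice were mated at about the time after the graft when Sensitized mice were sampled. S+P cells would thus be later after the graft, which cannot be told apart from pregnancy here. The paper sorted cells in separate experiments, which the labels do not mark. The mice sampled carried no transgene, and each sample is a small pool of one mouse's own antigen-specific cells, except that a library labelled as another mouse entered S+P C7 replicate 1.

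Amino acid uptake limits how fast an activated T cell can grow. Slc7a5 and Slc3a2 encode the light and heavy chains of the exchanger LAT1, which brings in leucine and other large neutral amino acids, while Slc1a5 and Slc38a2 encode transporters of glutamine and other small neutral amino acids. When amino acids are short or the endoplasmic reticulum is under stress, kinases phosphorylate eIF2, general translation slows and ATF4 protein is made from mRNA already present; ATF4, with partners such as CHOP (Ddit3), then induces transporter genes, asparagine synthetase (Asns), the pseudokinase Trib3 and the leucine sensor Sesn2. Because ATF4 is set mainly at translation, the level of its mRNA is not a reading of its activity.

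The 56 libraries held 6636532 to 32625243 counts, with a median of 17299849, and samples made by summing a mouse's libraries held 15547934 to 54809406. One library had the same counts for every gene in Naive replicate 1 and in S+P C4 replicate 1 and was left out of both. A library of S+P C7 replicate 1 and one of replicate 2 were nearly the same (r = 0.998 across genes on the log2 scale), and the pair was averaged into 1 sample. Few genes were detected in S+P C7 replicate 3 (7879) and in replicates 2 and 3 of S+P C4 (8002 and 7436), against at least 12383 in every other sample. The most genes were detected in S+P C7 replicate 4 (26805), with 25514 in one of its libraries and 13907 in the other. S+P C7 replicate 3 also held the highest levels of several markers of other cells: its 5 erythroid markers summed to 20068 CPM (counts scaled to library size after TMM normalization), led by Hba-a1 at 10046 CPM, its Ighm was 8233 CPM, its 6 dendritic cell markers summed to 3309 CPM, led by H2-Ab1, and its 5 NK cell markers summed to 934 CPM, led by Tyrobp. The B cell markers Ms4a1 and Pax5 were not above 3 counts in it. S+P C4 replicate 3 had 419 CPM of erythroid markers and S+P C4 replicate 2 had none of the 5 above 3 counts. The part of these sources in the members' values was not tested.

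The labelled cell type was checked against its markers. All 8 CD8+ T cell markers (Cd3d, Cd3e, Cd3g, Cd8a, Cd8b1, Trac, Trbc2 and Lck) were above 3 counts in 30 of 30 samples, and they summed to 8975 CPM in S+P C7 replicate 3 and to 12674 and 7620 CPM in replicates 2 and 3 of S+P C4. Cd4 was above 3 counts in 3 samples, with a highest level of 3.71 CPM. Among markers of other cells, edgeR called Itgax, which activated CD8+ T cells can also express, in Sensitized against Naive (at least 450.8-fold higher, adjusted p = 0.0566). Also called was the T cell receptor gamma gene Trgc2, higher in S+P C4, S+P C5 and then S+P C7 than in Sensitized (edgeR, adjusted p = 0.0295, 0.0225 and 0.0179). The folds were at least 2856, 1107 and 2523. Of the other gamma delta T cell markers none was called. Trdc reached at most 9.67 CPM and Trgc1 9.38 CPM in any sample, and Sox13 was above 3 counts in 1 sample. Trgc4 reached 260.7 CPM. Trgc2 alone thus does not mark gamma delta T cells here. Trgc2 was 1374 CPM in S+P C4 replicate 2, a sample with few genes, and at most 75.2 CPM in the rest of that group. In S+P C7 it was 748 CPM in replicate 6 and at most 151 CPM in the others. Itgax was called in 12 of 16 alternatives, and was lost when any Naive replicate or Sensitized replicate 2 was left out (edgeR, adjusted p up to 0.433). Trgc2 was called in 14 of 19, 16 of 19 and 14 of 18 alternatives in its 3 comparisons, and was lost in all of them without any of Sensitized replicates 1 to 3, in those of S+P C4 and S+P C7 also without Sensitized replicate 4, and in that of S+P C4 with the groups compared alone (edgeR, adjusted p up to 0.647, 0.2 and 0.158). The part of Itgax and Trgc2 in the members' values was not tested. In these small pools a lower value can come from fewer expressing cells or from less RNA per cell, which cannot be told apart.

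ATF4 binds its targets as a dimer at sites written TGATGNAA, the amino acid response element. A search for these letters on both strands ran from 250 bases before to 50 bases after each transcription start on GRCm39. It used both the GENCODE and the RefSeq starts. Counting a match at either start, it found them in 3 of the 10 genes, Asns, Trib3 and Ddit3, and the stretches with a match are shown. The capitals mark the match. Asns and Trib3 are placed by the RefSeq start (8 of the 10 genes matched the RefSeq table) and Ddit3 by the GENCODE canonical start. Asns lies on the minus strand at chr6:7693210-7693278, with the first matching base at -23 from the start. Ddit3 lies on the plus strand at chr10:127126315-127126414, with the match on the opposite strand from -199. Trib3 lies on the minus strand at chr2:152185948-152185977, with the match on the opposite strand from 15 bases after the start. All are written 5′ to 3′ on the gene's strand.
Asns: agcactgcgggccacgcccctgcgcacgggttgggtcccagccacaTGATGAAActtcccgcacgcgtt
Ddit3: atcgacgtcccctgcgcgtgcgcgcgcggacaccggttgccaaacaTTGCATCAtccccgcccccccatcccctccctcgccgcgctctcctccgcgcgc
Trib3: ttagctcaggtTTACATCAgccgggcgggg

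The letters stood in 1304 of 32851 RefSeq windows (3.97%) and in 836 of 21757 GENCODE windows (3.84%). The share of all genes with a match at either start was not taken, so the count of members has no like share beside it. The result depended on which start was used: Asns and Trib3 had no match in the GENCODE window, and Ddit3 had none in the RefSeq window. For the other 7 genes no match was found, which says only that the letters are not in these windows.

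Levels were compared between genes per kilobase of the canonical transcript, as median CPM per kb over the 30 samples. Atf4 stood at 86.5, Slc1a5 at 85.6 and Slc3a2 at 73.1 CPM per kb, and the ranges of the 3 genes overlapped. Ddit3 followed at 33.6 and Slc38a2 at 26.3 CPM per kb, an order that turned over when all exons were counted in the length (5.89 for Ddit3 and 12.7 for Slc38a2). A gap followed, with Ddit4 at 2.20, Slc7a5 at 1.09 and Sesn2 at 0.781 CPM per kb, their ranges overlapping, and the medians of Trib3 and Asns were 0. The 4 genes Slc3a2, Slc1a5, Slc38a2 and Atf4 were above 3 counts in all 30 samples, Ddit3 in 29, Ddit4 in 27, Slc7a5 in 26, Sesn2 in 20, Asns in 12 and Trib3 in 6. The 2 chains of LAT1 were thus unequal in mRNA: the ratio of Slc3a2 to Slc7a5 per kb ran from 12.5 to 811.6, with a median of 54.6, over the 26 samples in which Slc7a5 was above 3 counts.

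**Figure D1:**
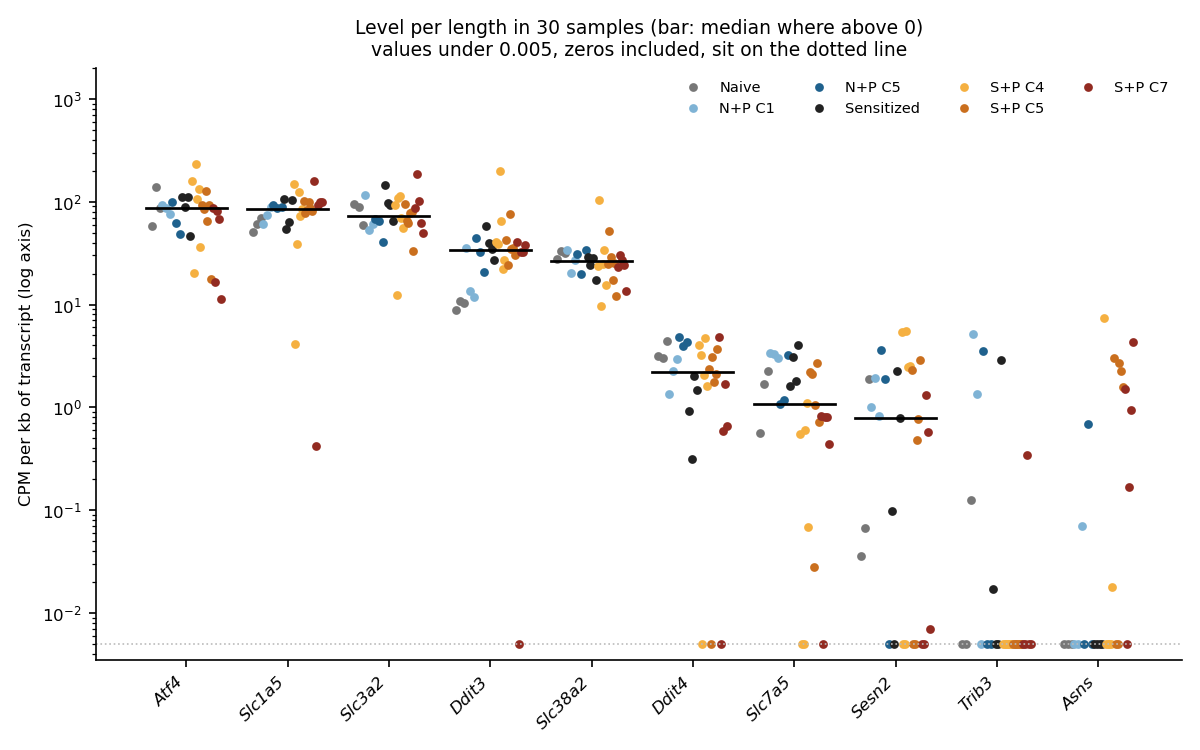
Level of each gene in CPM per kb of its canonical transcript (log axis), 1 point per sample (30 samples) coloured by group, with a bar at the median where it is above 0; values under 0.005, zeros included, sit on the dotted line. Atf4, Slc1a5, Slc3a2, Ddit3 and Slc38a2 have medians from 86.5 down to 26.3, and Ddit4, Slc7a5 and Sesn2 from 2.20 down to 0.781.

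Slc7a5 (ENSMUSG00000040010, GRCm39 chromosome 8, 122607884 to 122634433, minus strand) had its lowest group means and medians in the PD1-negative and PD1+CD73-negative cells of S+P mice. It was 1.98, 5.87 and 8.01 CPM in Naive, 11.8, 11.6 and 10.7 CPM in N+P C1, and 3.76, 4.12 and 11.4 CPM in N+P C5. The Sensitized samples were at 5.61, 10.9, 6.40 and 14.2 CPM. For S+P C4 the lowest, median and highest were 0, 1.09 and 3.90 CPM, with replicates 2 and 3 at 0, and in S+P C5 they were 0.0989, 5.60 and 9.51 CPM. The S+P C7 samples were at 2.90, 0, 2.83, 2.82 and 1.54 CPM, with 0 in replicate 3. Every S+P C4 and every S+P C7 sample lay below every Sensitized sample, and every S+P C4 sample below every N+P C1 sample, whereas S+P C5 overlapped with Sensitized. None of these differences passed the test across all genes.

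Against Sensitized cells (9.26 ± 4.01 CPM, SD, n = 4), Slc7a5 differed on the log2 scale by -2.76 ± 1.36 (SE) in S+P C4 (edgeR quasi-likelihood test, unadjusted p = 0.0516, Benjamini-Hochberg adjusted p = 0.4) and by -2.19 ± 1.43 in S+P C7 (edgeR, unadjusted p = 0.134, adjusted p = 0.777). The 95% interval was -5.43 to -0.09 for S+P C4 and -4.99 to 0.60 for S+P C7. These intervals use a normal approximation and are slightly narrower than the edgeR test implies. The first therefore does not set S+P C4 apart from Sensitized. Against N+P C1 cells (11.3 ± 0.587 CPM, SD, n = 3), S+P C4 differed by -3.05 ± 1.44 (edgeR, unadjusted p = 0.0419, adjusted p = 0.514). Leaving out the 3 samples with few genes gave -2.45 for Slc7a5 there (edgeR, unadjusted p = 0.0397, adjusted p = 0.473). DESeq2 fitted to the 56 columns as separate samples was the only alternative that called Slc7a5 in this comparison (-2.75, adjusted p = 0.0769), a fit in which libraries of 1 mouse count as replicates. N+P C1 lay above Naive in all 3 samples, by 1.10 ± 1.73 (edgeR, unadjusted p = 0.529, adjusted p = 1). S+P C5 lay above S+P C4 by 1.92 ± 1.25 (edgeR, unadjusted p = 0.135, adjusted p = 0.598), with overlapping groups. Within a mouse, Slc7a5 was higher in S+P C5 than in S+P C4 in 6 of 6 mice, though in replicate 3 only by 2 counts against 0, and 4.48% of all genes lay one way in all 6. With the mouse as a block, the Slc7a5 difference was 2.79 ± 1.42 (edgeR, unadjusted p = 0.0705, adjusted p = 0.917). Slc7a5 was lower in S+P C7 than in S+P C5 in 5 of 5 same-numbered pairs (6.41% of all genes lay one way), again with 0 against 2 counts in replicate 3. The difference with the block was -1.85 ± 1.42 (edgeR, unadjusted p = 0.213, adjusted p = 1). Replicate 1 of S+P C7 is here the sample averaged with a library labelled replicate 2.

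Slc3a2 (ENSMUSG00000010095, chromosome 19, 8684245 to 8701108, minus strand) varied within groups as much as between them. Its levels were 242, 229 and 153 CPM in Naive, 298.6, 135 and 154 CPM in N+P C1, 172.5, 166 and 103.5 CPM in N+P C5, and 374, 249, 239.9 and 164.5 CPM in Sensitized. The lowest, median and highest were 31.9, 207 and 289 CPM in S+P C4 and 85.1, 182 and 243 CPM in S+P C5, and the 5 S+P C7 samples ran from 125.5 to 475 CPM, the highest of all being replicate 3. The groups overlapped in every comparison. The smallest unadjusted p was that of S+P C5 against Sensitized, with a log2 difference of -0.55 ± 0.44 (edgeR, unadjusted p = 0.224, adjusted p = 0.868) and a 95% interval of -1.41 to 0.32. The long non-coding genes Snhg1 and Gm59099 overlap Slc3a2 on the other strand, and because the strand setting of the counting was not named, their reads and those of Slc3a2 cannot be told apart.

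Slc1a5 (ENSMUSG00000001918, chromosome 7, 16515265 to 16532731, plus strand) was among the steadiest of the 10 genes in most samples. In N+P C5 its levels were 255, 241 and 245 CPM, above all 3 Naive samples at 139.8, 169 and 192 CPM, and the log2 difference was 0.56 ± 0.86 (edgeR, unadjusted p = 0.517, adjusted p = 1), with a 95% interval of -1.12 to 2.25. The 6 S+P C5 samples had 216, 235 and 279 CPM as lowest, median and highest, a wider spread than in N+P C5 (SD 27.1 against 7.18 CPM). The lowest values were in 2 of the samples with few genes, at 11.4 CPM in S+P C4 replicate 2 and 1.17 CPM in S+P C7 replicate 3, against medians of 217 and 274 CPM in those groups.

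Slc38a2 (ENSMUSG00000022462, chromosome 15, 96585266 to 96597894, minus strand) had similar medians in all groups, from 113 CPM in S+P C4 and S+P C7 to 149 CPM in Naive. It reached 488 CPM in S+P C4 replicate 2, where Slc1a5 was near its lowest, and 45.1 CPM in S+P C4 replicate 3. The S+P C5 extremes were 56.5 and 244 CPM. No pair of groups stood apart, and the smallest p was that of S+P C7 against S+P C4, -0.57 ± 0.46 (edgeR, unadjusted p = 0.227, adjusted p = 0.703). That difference rested on 1 sample: without S+P C4 replicate 2 it was 0.12.

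**Figure D2:**
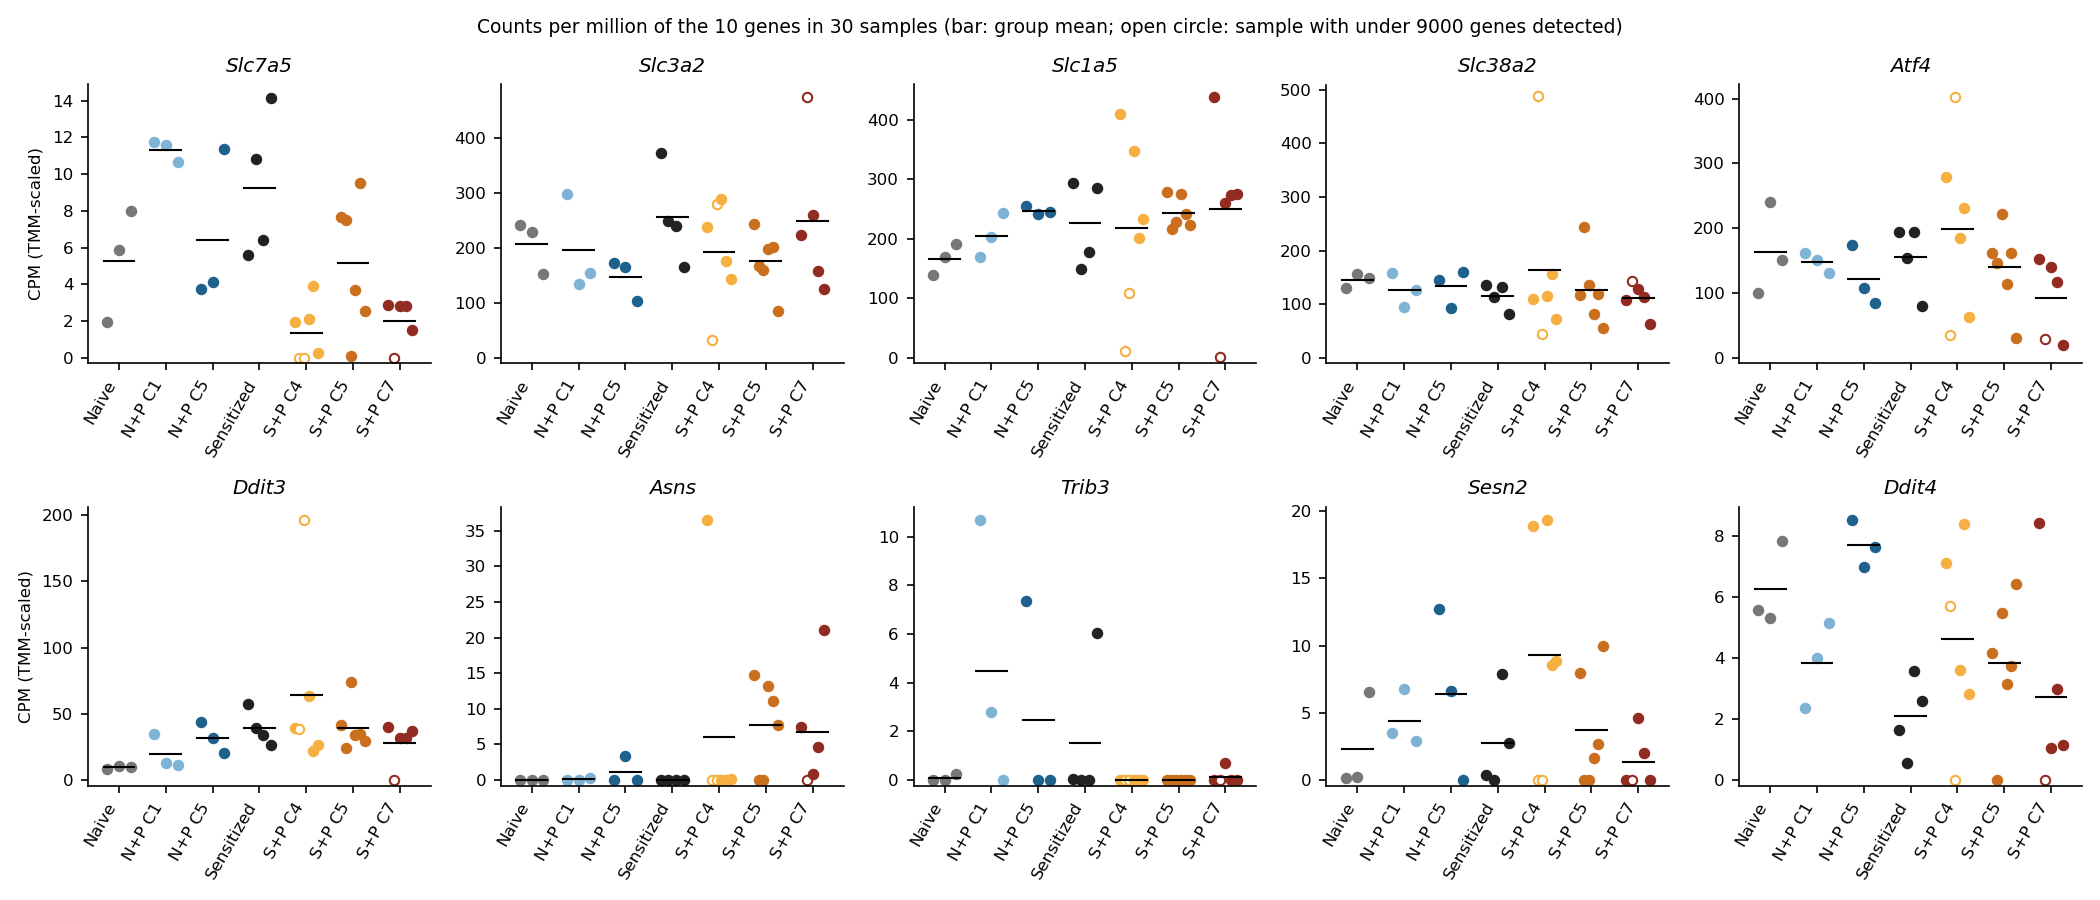
CPM of each of the 10 genes in every sample, by group, on a scale of its own per gene, with 1 point per sample and a line at the group mean. Slc7a5 has its lowest means in S+P C4 and S+P C7, Ddit3 in Naive, and Asns and Trib3 are at or near 0 in most samples.

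Atf4 (ENSMUSG00000042406, chromosome 15, 80139372 to 80141745, plus strand) was present in all samples without a difference that passed the test. Its levels were 100.2, 239.9 and 151 CPM in Naive, 162, 151 and 131.5 CPM in N+P C1, 174, 108 and 84.3 CPM in N+P C5, and 194, 154, 194 and 80.2 CPM in Sensitized. S+P C4 had 35.5, 208 and 403 CPM as lowest, median and highest, the extremes being the 2 samples with few genes, and S+P C5 had 30.5, 154 and 222 CPM. The S+P C7 samples were at 153, 29.0, 141, 118 and 19.9 CPM, so that 2 of them lay under every Sensitized sample and the others within the Sensitized range. The smallest p for Atf4 was that of S+P C7 against S+P C4, -1.12 ± 0.56 (edgeR, unadjusted p = 0.0538, adjusted p = 0.327), with a 95% interval of -2.21 to -0.02. That interval uses the normal approximation and is slightly narrower than the edgeR test implies, so it does not set the groups apart. Atf4 was lower in S+P C7 than in S+P C4 in 5 of 5 same-numbered pairs, where 4.07% of all genes lay one way, and with the mouse as a block the difference was -1.19 ± 0.58 (edgeR, unadjusted p = 0.0594, adjusted p = 1). Replicate 1 of S+P C7 in these pairs is the average named above.

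Ddit3 (ENSMUSG00000025408, chromosome 10, 127124268 to 127132163, plus strand), which encodes the ATF4 partner CHOP, was lowest in Naive cells. Its levels were 8.64, 10.5 and 10.1 CPM in Naive, 34.7, 13.2 and 11.5 CPM in N+P C1, 43.7, 31.8 and 20.1 CPM in N+P C5, and 57.4, 39.3, 34.1 and 26.4 CPM in Sensitized. The lowest, median and highest were 21.6, 38.9 and 196 CPM in S+P C4 and 23.9, 34.4 and 73.6 CPM in S+P C5, and the S+P C7 samples were at 39.9, 0, 31.4, 31.7 and 37.1 CPM. All samples of the other 6 groups lay above all 3 Naive samples except S+P C7 replicate 3 at 0. The mean was 9.77 ± 0.997 CPM in Naive (SD, n = 3) and 39.3 ± 13.2 CPM in Sensitized (SD, n = 4). Naive replicate 1 rests on 1 library here, because its other one, shared with S+P C4, was left out, and that library held 570 Ddit3 counts beside 210 in the one kept. With both, Naive replicate 1 was at 17.6 CPM scaled by total counts, above 2 of the N+P C1 samples at 13.1 and 13.6 CPM, so the small Naive spread and the lack of overlap with N+P C1 depend on leaving it out.

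Ddit3 differed from Naive by 2.01 ± 1.10 on the log2 scale in Sensitized cells (edgeR quasi-likelihood test, unadjusted p = 0.078, Benjamini-Hochberg adjusted p = 0.636), with a 95% interval of -0.15 to 4.17. The difference was 1.02 ± 1.11 for N+P C1 (edgeR, unadjusted p = 0.368, adjusted p = 1) and 1.71 ± 1.13 for N+P C5 (edgeR, unadjusted p = 0.142, adjusted p = 0.876). With all columns kept the Sensitized difference was 1.57 ± 1.06 for Ddit3 (edgeR, unadjusted p = 0.15, adjusted p = 0.826). These 3 comparisons shared the Naive samples, and Ddit3 was not called in any of them. Without the 3 samples with few genes, none of them Naive or Sensitized, the Ddit3 difference between Sensitized and Naive was 1.99 ± 0.50 and was called (edgeR, adjusted p = 0.0688, in a fit that called 0.782% of all genes in that comparison), with nearly the same fold and a smaller standard error. DESeq2 on the 56 columns also called it (1.63, adjusted p = 0.0735, where 5.6% of all genes were called), and DESeq2 on summed libraries did not. The change from Sensitized to S+P C5 in Ddit3 differed from that from Naive to N+P C5 by -1.69 ± 1.41 (edgeR, unadjusted p = 0.238, adjusted p = 1). Mbd6 and Mars1, the latter a methionyl-tRNA synthetase gene, overlap Ddit3 on the other strand, as does the long non-coding gene Gm4189, and Gm20492, Gm66222 and the second Ddit3 entry overlap it on the same strand, so part of its reads could belong to them. Gm12981 overlaps Sesn2 on the same strand, and long non-coding genes overlap Slc38a2, Asns and Trib3 on the other strand.

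Asns (ENSMUSG00000029752, chromosome 6, 7671667 to 7728461, minus strand), which makes asparagine from aspartate, had counts only in post-partum samples. It had no count in any of the 3 Naive and 4 Sensitized samples. The N+P C1 samples were at 0, 0 and 0.345 CPM and those of N+P C5 at 0, 3.39 and 0 CPM. The 6 S+P C5 samples were at 14.7, 0, 0, 13.2, 11.1 and 7.77 CPM, and the 5 S+P C7 samples at 7.43, 0, 0.814, 4.60 and 21.1 CPM, with 0 in replicate 3. Within S+P C4 only replicate 1 held more, with 36.5 CPM; replicate 6 had 0.0884 CPM and the others had none. Asns was thus above 3 counts in 4 of 6 S+P C5, 4 of 5 S+P C7 and 2 of 6 S+P C4 samples, and the groups overlapped at 0.

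Folds of Asns are given against a floor of 3 counts per sample, averaged over the group at 0, and cover counting error only. Against Sensitized, Asns was at least 83.6-fold higher in S+P C5, at least 72.8-fold in S+P C7 and at least 65.5-fold in S+P C4. Their edgeR unadjusted p were 0.00811, 0.00893 and 0.00923 and their Benjamini-Hochberg adjusted p were 0.277, 0.473 and 0.317, so Asns was not called. Leaving out 1 mouse at a time, the S+P C5 bound ran from 68.7 to 100.3, the S+P C7 bound fell to 34.5 without replicate 6, and the S+P C4 value fell to the floor without replicate 1. In N+P C5 against Naive Asns was at least 10.1-fold higher (edgeR, unadjusted p = 0.0557, adjusted p = 0.765), all from 1 library of 1 mouse with 116 counts beside one with 0. The summed level of 10 cell cycle genes, with a median of 374.5 CPM in Sensitized, was 606 CPM in S+P C5 and 1208 CPM in S+P C7 but 342 CPM in S+P C4, and its part in the Asns values was not tested. The 3 samples with few genes detected had no Asns count.

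Trib3 (ENSMUSG00000032715, chromosome 2, 152179337 to 152191958, minus strand), a pseudokinase that restrains ATF4 and CHOP, was above 3 counts in 6 samples, and no S+P C4 or S+P C5 sample had a count. It was at 0, 0 and 0.265 CPM in Naive, at 10.7, 2.79 and 0 CPM in N+P C1, at 7.37, 0 and 0 CPM in N+P C5 and at 0.0359, 0, 0 and 6.05 CPM in Sensitized. In S+P C7 only replicate 4 had counts, 0.716 CPM, and all 22 came from its library with 25514 genes. Each group with Trib3 also had samples at 0 or near it, and only N+P C1 had 2 mice above 1 CPM. Against N+P C1, Trib3 was at least 32.5-fold lower in S+P C4 (edgeR, unadjusted p = 0.00616, adjusted p = 0.443), and at least 10.1-fold lower without N+P C1 replicate 1. Against N+P C5 it was at least 25.4-fold lower in S+P C5 (edgeR, unadjusted p = 0.00746, adjusted p = 0.809), and against Sensitized at least 15.7-fold lower in S+P C5 (edgeR, unadjusted p = 0.0093, adjusted p = 0.277) and at least 11.01-fold lower in S+P C4 (edgeR, unadjusted p = 0.0111, adjusted p = 0.317). The last 3 came down to the floor when 1 mouse was left out, N+P C5 replicate 1 or Sensitized replicate 4.

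How far such values repeated between libraries of the same sample was read in 23 pairs. Slc3a2, Slc1a5, Slc38a2, Atf4 and Ddit3 were above 3 counts in both libraries of all 23 pairs, Ddit4 in 21 and Slc7a5 in 18. Sesn2 was above 3 counts in both libraries of 10 pairs and in only one library of 9. Asns was in both libraries of 5 pairs, in one library of 6 and in neither of 12, and Trib3 in both of 1, in one of 5 and in neither of 17. Trib3 had 351 counts in one library of N+P C5 replicate 1 and 0 in the other, 230 and 3 counts in those of Sensitized replicate 4, and 160 and 195 counts in those of N+P C1 replicate 1. Asns had 548 and 315 counts in the libraries of S+P C7 replicate 6 and 555 and 128 in those of S+P C5 replicate 1, but 366 and 0 in those of S+P C5 replicate 6.

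**Figure D3:**
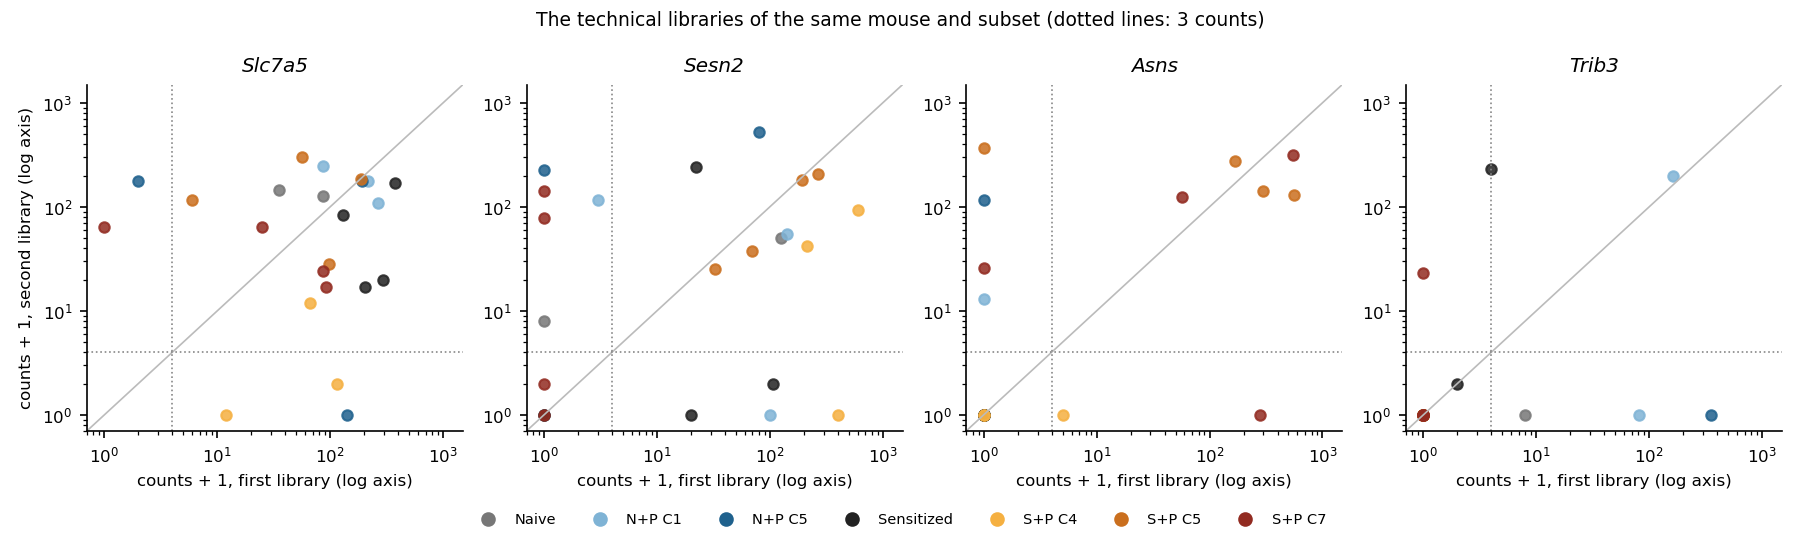
Counts plus 1 of Slc7a5, Sesn2, Asns and Trib3 in one library of a sample (horizontal) against the other library of the same sample (vertical), 23 pairs, log axes, with dotted lines at 3 counts and colours for groups. Several points of Sesn2, Asns and Trib3 lie on an axis, with counts in one library only.

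Sesn2 (ENSMUSG00000028893, chromosome 4, 132219335 to 132237815, minus strand) differed as much within groups as between them. It was at 0.1235, 0.232 and 6.57 CPM in Naive, at 3.53, 6.76 and 2.87 CPM in N+P C1, at 12.7, 6.60 and 0 CPM in N+P C5 and at 0.341, 0, 7.92 and 2.75 CPM in Sensitized. The lowest, median and highest were 0, 8.70 and 19.4 CPM in S+P C4 and 0, 2.19 and 9.98 CPM in S+P C5, while S+P C7 reached 4.59 CPM at most. The smallest p was that of S+P C7 against S+P C4, -2.81 ± 2.04 on the log2 scale (edgeR, unadjusted p = 0.179, adjusted p = 0.628), with a 95% interval of -6.82 to 1.20, and the groups overlapped.

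Ddit4 (ENSMUSG00000020108, chromosome 10, 59785491 to 59788492, minus strand), which encodes REDD1, an inhibitor of mTORC1 that responds to stress and to glucocorticoids, was lower in all 4 Sensitized samples than in all 3 Naive samples. It was at 5.60, 5.34 and 7.86 CPM in Naive and at 1.64, 0.55, 3.58 and 2.596 CPM in Sensitized. N+P C1 was at 2.35, 4.01 and 5.14 CPM and N+P C5 at 8.54, 6.98 and 7.64 CPM, which did not overlap with each other. The log2 difference of Sensitized from Naive was -1.58 ± 1.62 (edgeR, unadjusted p = 0.336, adjusted p = 1), with a 95% interval of -4.75 to 1.59, and that of N+P C5 from N+P C1 was 1.01 ± 1.75 (edgeR, unadjusted p = 0.568, adjusted p = 1). S+P C5, with 0, 3.96 and 6.43 CPM as lowest, median and highest, lay below N+P C5 in all samples, by -1.01 ± 1.46 (edgeR, unadjusted p = 0.493, adjusted p = 1). S+P C4 ran from 0 to 8.40 CPM and S+P C7 from 0 to 8.43 CPM.

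**Figure D4:**
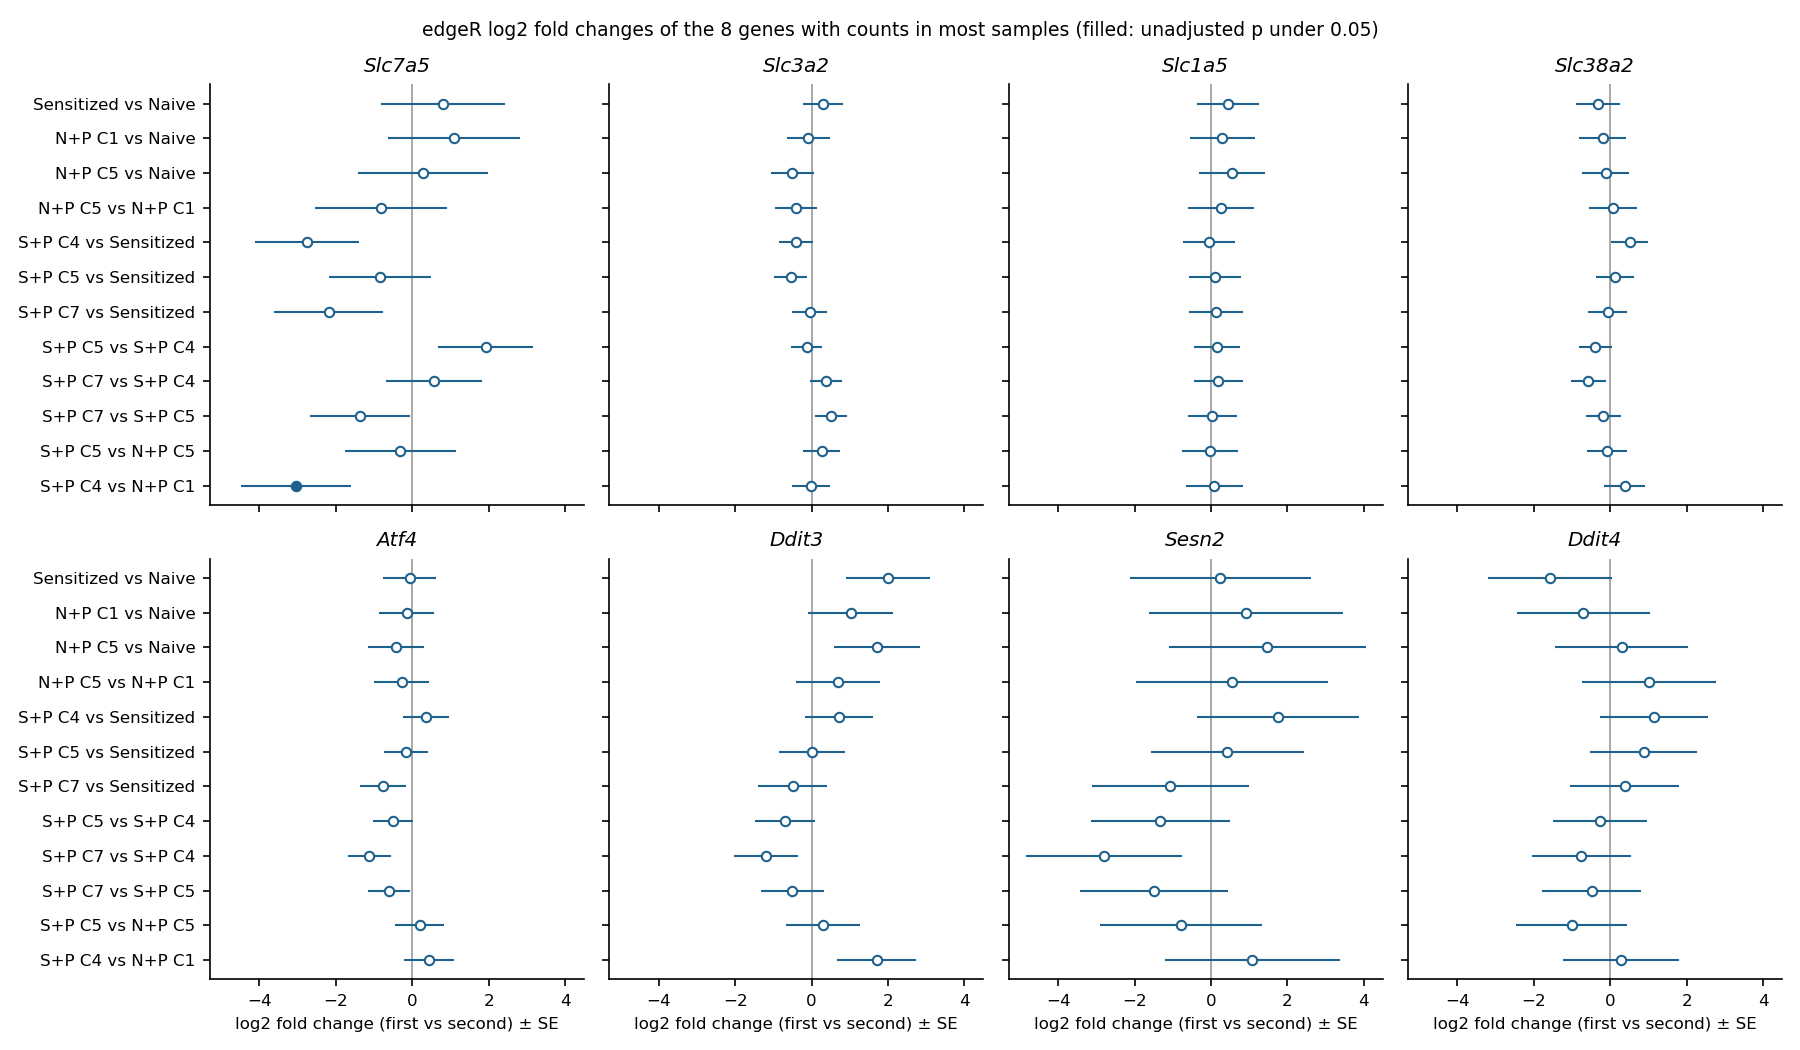
Log2 difference of 8 genes (all but Asns and Trib3) in the 12 comparisons of 2 groups, as fitted by edgeR, with bars of 1 standard error, and filled points where the unadjusted p was under 0.05. The 1 filled point is Slc7a5 in S+P C4 against N+P C1, at -3.05, and no gene was called.

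Counted over the 10 genes, edgeR called none in the 14 comparisons, counting as called an adjusted p under 0.1 and a log2 difference over 0.9 in size. The share of all 19657 genes called was itself small. In Sensitized against Naive 0.153% of all genes were called, no member had an unadjusted p under 0.05 (7.82% of all genes) and 2 members did not overlap between the groups (7.59% of all genes), Ddit3 and Ddit4. DESeq2 on summed libraries called no member there (5.09% of all genes). In N+P C1 against Naive 0% of all genes were called, no member had an unadjusted p under 0.05 (3.23%) and 3 did not overlap (7.3%), Slc7a5, Ddit3 and Ddit4. In N+P C5 against Naive 0.0407% were called, no member had an unadjusted p under 0.05 (5.33%) and 2 did not overlap (12.9%), Slc1a5 and Ddit3. DESeq2 called 1 member, Asns, in each of these pregnancy comparisons, where it called 3.23% and 4.9% of all genes. In N+P C5 against N+P C1 0.00509% were called, no member had an unadjusted p under 0.05 (4.31%), 1 did not overlap (10.8%), Ddit4, and DESeq2 called no member (3.82%).

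In S+P C4 against Sensitized 0.00509% of all genes were called, 2 members had an unadjusted p under 0.05 (12.7%), Asns and Trib3, and 1 did not overlap (0.799%), Slc7a5. In S+P C5 against Sensitized 0.0712% were called, Asns and Trib3 had an unadjusted p under 0.05 (13%) and no member stood apart (2.88%). In S+P C7 against Sensitized 0.0305% were called, Asns had an unadjusted p under 0.05 (10.2%) and 1 member did not overlap (2.15%), Slc7a5. DESeq2 on summed libraries called Asns and Trib3 in the first and second of these (4.53% and 5.32% of all genes) and Asns in the last (3.49%), genes that have counts in 1 of the groups only. These 3 comparisons shared the Sensitized samples.

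Among the S+P subsets 0.0305% of all genes were called in S+P C5 against S+P C4, 0.00509% in S+P C7 against S+P C4 and 0% in S+P C7 against S+P C5, and no member stood apart (0.687%, 0.31% and 0.397% of all genes). Members at an unadjusted p under 0.05 numbered 0, 0 and 1 (13.3%, 15.9% and 12.7%), the last being Trib3. DESeq2 called Trib3 in both comparisons of S+P C7 (5.26% and 2.45%) and no member in the other (4.67%). In S+P C5 against N+P C5 0% of all genes were called, 1 member had an unadjusted p under 0.05 (5.88%), Trib3, and 1 did not overlap (2.67%), Ddit4. In S+P C4 against N+P C1 0.061% were called, 2 had an unadjusted p under 0.05 (9.22%), Trib3 and Slc7a5, and 1 did not overlap (3.29%), Slc7a5. DESeq2 called Trib3 in both (2.47% and 4.77%). In the test of whether the pregnancy change differed between S+P and N+P mice 0.0254% of all genes were called and 1 member, Trib3, had an unadjusted p under 0.05 (6.42%), and in the test of whether the PD1+CD73+ subset differed from the PD1-negative one by sensitization 0% were called and no member had one (5.96%). DESeq2 called Trib3 in the former (3.9%) and no member in the latter (3.69%). A fit with the mouse as a block called 29 of all genes in N+P C5 against N+P C1, where the fit without it called 1, and called 3 in S+P C5 against S+P C4 in place of 6, and no member in any of these comparisons.

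The median log2 difference of the 10 members was 0.28 in Sensitized against Naive, beside 0.04 for all genes tested, 0.61 for N+P C1 against Naive, 0.43 for N+P C5 against Naive, both beside 0.00, and against Sensitized 0.43 in S+P C4 (beside -0.14), 0.06 in S+P C5 (beside -0.01) and -0.28 in S+P C7 (beside 0.00). The median standard error of a gene ran from 1.33 to 1.85 in the comparisons of 2 groups.

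The other genes of the pathway were read from lists, and edgeR called 0% to 0.153% of all genes in these comparisons, so that a list without a call does not stand apart from the background. Of 16 other amino acid transporter genes tested (of 19), 17 genes of the eIF2 kinases, eIF2, eIF2B and its phosphatases, 22 other partners and targets of ATF4 (of 26), 20 cytosolic aminoacyl-tRNA synthetase genes, 32 genes of mTORC1 and amino acid sensing (of 33), 17 other genes of the unfolded protein response, 6 transcription factor genes known to act on transporter genes (of 7), 9 immediate early and heat shock genes (of 10) and 10 cell cycle genes, edgeR called 0 in each of the 14 comparisons. By unadjusted p under 0.05 the fullest list was that of the other transporters in S+P C7 against S+P C4, with 6 higher and 1 lower of 16, beside 15.9% of all genes. Markers of other cells were also at an unadjusted p under 0.05 and higher there, 3 of 6 of dendritic cells, 2 of 8 of myeloid cells, 2 of 5 of erythroid cells and 2 of 4 of B cells, and among the transporters Slc7a7 was at 22.2 CPM in S+P C7 replicate 3 and at most 3.16 CPM in every other sample. Their part in the count was not tested. In S+P C5 against Sensitized the median log2 difference was -0.36 for the synthetases, 0.24 for the other transporters, -0.11 for the mTORC1 genes, -0.08 for the eIF2 genes, -0.05 for the ATF4 genes, 0.00 for the unfolded protein response, -0.20 for the immediate early genes and 1.26 for the cell cycle genes, beside -0.01 for all genes. In N+P C5 against Naive the corresponding medians were -0.37, -0.23, 0.02, -0.17, 0.29, 0.02, -0.40 and -0.27, beside 0.00.

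Hif1a, the hypoxia factor, and Myc, which drives transporter genes in dividing T cells, had the smallest p in S+P C5 against Sensitized among the transcription factor genes. Hif1a was 42.8, 59.4, 67.1 and 77.2 CPM in Sensitized and 184, 311 and 426 CPM as lowest, median and highest in S+P C5, without overlap, with a log2 difference of 2.36 ± 0.82 (edgeR, unadjusted p = 0.00735, adjusted p = 0.277). It was 27.5, 70.4 and 75.2 CPM in Naive and 228, 242 and 257.5 CPM in N+P C5, again without overlap, by 2.07 ± 0.99 (edgeR, unadjusted p = 0.0438, adjusted p = 0.765). Myc was 183, 193, 106 and 106 CPM in Sensitized and ran from 17.7 to 65.9 CPM in S+P C5, by -1.97 ± 1.12 (edgeR, unadjusted p = 0.0886, adjusted p = 0.52). Neither gene was called. Of all genes, 2.88% did not overlap in S+P C5 against Sensitized and 12.9% in N+P C5 against Naive. The transcription factor list as a whole had a median of 0.20 in S+P C5 against Sensitized and 0.11 in N+P C5 against Naive.

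Of the partners and regulators, Atf3, which ATF4 induces, was 0.198, 13.7, 0 and 0 CPM in Sensitized and 0 in all S+P C5 samples, and Deptor, an mTOR inhibitor, was 5.43, 1.80, 0 and 0 CPM in Sensitized and 0 in all S+P C5 samples. Neither gene was called (edgeR, adjusted p = 0.277 for both), and the Sensitized level rested mainly on 1 mouse for Atf3 and on 2 for Deptor. The synthetase genes Vars1 and Wars1 lay lower in all S+P C5 samples than in all Sensitized samples. Vars1 was 53.0 ± 16.7 against 100.7 ± 30.02 CPM (SD, n = 6 and 4), by -0.93 ± 0.82 on the log2 scale (edgeR, unadjusted p = 0.268, adjusted p = 0.936). Wars1 was 22.8 ± 18.1 against 56.7 ± 9.69 CPM, by -1.32 ± 1.41 (edgeR, unadjusted p = 0.356). Neither synthetase gene was called, and 2.88% of all genes did not overlap in that comparison. Hyou1, a chaperone of the endoplasmic reticulum, was 9.26, 20.5 and 36.8 CPM in N+P C5, above Naive at 0.247, 3.71 and 8.46 CPM, by 2.42 ± 1.23 (edgeR, unadjusted p = 0.0582, adjusted p = 0.765). Dnajb9, a co-chaperone of the same compartment, went the other way, at 53.5, 62.7 and 54.4 CPM in N+P C5 against 148.5, 199.9 and 94.7 CPM in Naive, without overlap, by -1.38 ± 0.91 (edgeR, unadjusted p = 0.14, adjusted p = 0.873). Sesn3, a relative of Sesn2, was 178 ± 29.2 CPM in N+P C5 against 82.0 ± 19.8 CPM in Naive, without overlap. The log2 difference was 1.12 ± 0.81 (edgeR, unadjusted p = 0.175, adjusted p = 0.968). In N+P C5 against Naive, 12.9% of all genes did not overlap.

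Tsc22d3, which encodes the glucocorticoid-induced protein GILZ, was the one pathway-list gene called in any comparison. It was 864, 880.2, 1283 and 475 CPM in Sensitized and 76.4, 184 and 347 CPM as lowest, median and highest in S+P C5, so that every S+P C5 sample lay below every Sensitized sample. Tsc22d3 fell by 2.19 ± 0.46 on the log2 scale (edgeR, adjusted p = 0.0701). It was called in 10 of 19 alternatives, with adjusted p from 4.66e-08 to 0.319, and was not called without a filter on low counts or when any of Sensitized replicates 1 to 3 or S+P C5 replicates 2 to 6 was left out. Ddit4, another glucocorticoid target, overlapped between these groups. Of the other 6 genes of that list of 7, none was called in any comparison, and the list's median was 0.32 in this comparison.

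Some genes moved with members over the samples, which is given as a description only, since samples of 1 mouse share their source and libraries differ in depth and genes detected. Over 8264 genes with a mean of at least 10 CPM, the one most like Atf4 in log2 CPM was the immediate early gene Jun (Pearson r = 0.835 over 30 samples, 0.819 over 27 without the samples with few genes), then Jund (0.796 and 0.748). For Ddit4 it was Maml1 (0.921 and 0.844), for Slc7a5 Mrrf (0.914 and 0.754) and for Slc3a2 Psmg4 (0.831 and 0.562). For Slc38a2 it was Zfas1 (0.782 and 0.649) and for Sesn2 Zfp983 (0.749 and 0.691). Spearman rank correlations over the 30 samples were lower for these pairs. They were 0.631 for Jun, 0.496 for Maml1, 0.629 for Mrrf, 0.733 for Psmg4, 0.679 for Zfas1 and 0.596 for Zfp983. Ier2 was less like Slc3a2 than Psmg4 over 30 samples (Pearson r = 0.815) but more so over the 27 (0.765). The likeness of Slc1a5 to Akap8l (0.966) rested on the samples with few genes, since it was 0.200 without them, and that of Ddit3 to Ncf4 went from 0.926 to 0.564. For Asns it was Penk (0.641 and 0.615), then the mitotic spindle gene Tpx2 (0.619 and 0.592), and for Trib3 it was Gm13456 (0.504 and 0.553).

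Between the members themselves the same 27 samples gave r = 0.692 for Slc38a2 with Atf4 (0.017 over all 30) and 0.633 for Slc3a2 with Atf4 (0.458 over all 30). The other members had lower r with Atf4 over the 27 samples. It was 0.151 for Slc7a5 (0.263 over all 30), 0.136 for Sesn2 (0.205), 0.110 for Ddit4 (0.071) and 0.064 for Trib3 (0.089). It was 0.080 for Ddit3 (0.434 over all 30), -0.009 for Slc1a5 (0.453) and -0.317 for Asns (-0.187). The Spearman rank correlation of Ddit3 with Atf4 was 0.401 over the 27 samples and 0.464 over all 30. Slc1a5 had r = 0.517 with Ddit3 (0.724 over all 30) and 0.556 with Asns (0.325 over all 30), and Slc38a2 had -0.534 with Asns (-0.392 over all 30). The 2 LAT1 chains, Slc7a5 and Slc3a2, had r = 0.120 over 27 samples and 0.121 over 30.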

How the data were processed

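RNA-Seq was done on SmartSeq2 libraries sequenced in 1 run as paired reads of 150 bases. The counts are as the authors deposited them, whole numbers for each gene in each library without scaling. Per the labels and the methods, reads were trimmed with Cutadapt 3.4, aligned with STAR 2.6.1b to GRCm39, reads mapping to several places were removed, and the rest were counted with featureCounts 2.0.1, and the strand option was not given in the sources used here. All 56 count columns were mapped to samples (0 unmapped).

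Libraries of 1 mouse and subset were summed, except that 2 columns, the same library in Naive and S+P C4, were left out, and the nearly identical S+P C7 pair was averaged. CPM were scaled by TMM. edgeR 4.0.16 (R 4.3.3, limma 3.58.1, genes kept by filterByExpr at a minimum of 10 counts, the 7 groups in one robust quasi-likelihood model, two-sided) tested 19657 genes with Benjamini-Hochberg adjustment. A gene was called at an adjusted p under 0.1 and a log2 difference over 0.9 in size. DESeq2 1.42.0 was an alternative, as were other normalizations and filters, the groups compared alone, and leaving out replicates or the samples under 9000 genes. Tables and figures were made with Python 3.11.15, pandas 2.3.3, scipy 1.17.1 and matplotlib 3.10.9, and genes were placed with GENCODE M39, which held 54749 of 55359 genes.

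The members and lists were chosen with earlier results of these data known. Named genes were all 10 members, genes called in a list (at most 4 per direction) or, where a list had no call, 2 by smallest unadjusted p in S+P C5 against Sensitized and 2 in N+P C5 against Naive, and the 3 genes most like each member. Same-numbered subsets were taken to come from 1 mouse, as cells were prepared per mouse. Their deviations from the group means had a mean correlation of 0.047 in N+P (3 pairs) and of 0.109, 0.174 and 0.117 in S+P, against about -0.02 for different numbers. Single values overlapped. For S+P C4 with S+P C7 they ran from 0.043 to 0.313 for the same number and from -0.27 to 0.222 for different numbers. The highest was that of the replicates 3, both with few genes. Whether a shared mouse or another shared source gave these values was not tested. Standard errors were worked out from the log2 difference and the quasi-likelihood F. Intervals of 95% use them with the normal approximation, so an interval can be narrower than the test implies. The floor is 3 counts per sample. In the main fit p-values measure the spread between samples, and subsets of 1 mouse count there as separate samples. In the fit with the mouse as a block, differences between mice are taken out of that spread. One marker gene is not reported here.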

Additional observations from a re-analysis of the deposited data

Results flagged for a closer look

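Of 37 tests for a sample far from the rest of its group (groups of 4 to 6 samples), 7 gave one, and chance gives about 1 in 20 groups. That rate does not apply to the flags of Asns and Trib3, where nearly all other samples of the group were at or near 0. Those flags say only that 1 sample held most of the counts. In S+P C4, Slc38a2 was 488 CPM in replicate 2, Ddit3 was 196 CPM in replicate 3 and Asns was 36.5 CPM in replicate 1, each the highest of 6. In S+P C5, Ddit3 was 73.6 CPM in replicate 3, the highest of 6. In S+P C7, Ddit3 was 0 CPM in replicate 3, the lowest of 5, and Trib3 was 0.716 CPM in replicate 4, the highest of 5. In Sensitized, Trib3 was 6.05 CPM in replicate 4, the highest of 4. S+P C7 replicate 3 and replicates 2 and 3 of S+P C4 were the 3 samples with few genes detected.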

How the results depend on the processing

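Where edgeR called 0 of the 10 members, DESeq2 on summed libraries and on 56 columns each called 1 in N+P C1 and N+P C5 against Naive (Asns), 2 in S+P C4 and S+P C5 against Sensitized (Asns and Trib3), 1 in S+P C7 against Sensitized (Asns), and 1 (Trib3) in S+P C7 against S+P C4 and S+P C5, in S+P C5 against N+P C5 and in the difference of pregnancy changes. In S+P C4 against N+P C1 they called 1 (Trib3) and 2 (Trib3 and Slc7a5). In the same order of comparisons DESeq2 on 56 columns called 2.11%, 4.81%, 3.97%, 5.42%, 5.36%, 4.3%, 2.56%, 2.67%, 4.14% and 5.19% of all genes. In Sensitized against Naive, DESeq2 on 56 columns and edgeR without the samples under 9000 genes each called 1 (Ddit3; 5.6% and 0.782% of all genes). The cause was not tested. No member was called when 1 replicate was left out, nor in any other alternative, and 80 of the 140 differences (10 members in 14 comparisons) had no alternative of the other sign.

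Signs turned for small differences and for some large fitted ones of genes at 0 in most samples. Over the alternatives Trib3 ran from -4.57 to 9.35 in N+P C5 against Naive, from -2.43 to 8.66 in Sensitized against Naive and from -8.65 to 3.15 in S+P C7 against Sensitized, and Asns from -2.28 to 10.64 in S+P C4 against N+P C1, each with the other sign in 1 alternative. Atf4 in Sensitized against Naive was 0.03 without TMM scaling and from -0.33 to 0.31 with 1 replicate left out. In S+P C5 against Sensitized, with 1 replicate left out, Slc1a5 ran from -0.05 to 0.26, Atf4 from -0.37 to 0.06 and Slc38a2 from -0.17 to 0.27, and Slc38a2 was -0.01 with DESeq2 on 56 columns. Slc38a2 in S+P C7 against S+P C4 was 0.04 with the replicate block and from -0.76 to 0.12 with 1 replicate left out. The block called 0 members and, over all genes, 29 in N+P C5 against N+P C1 (1 without it), 3 in S+P C5 against S+P C4 (6), and 0 in S+P C7 against S+P C4 (1), and it changed no call of a member.

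Over the 14 comparisons edgeR called 0 to 30 of all genes, DESeq2 623 to 1102 on summed libraries and 490 to 1045 on 56 columns, edgeR 0 to 142 with the groups compared alone, 0 to 199 without the samples under 9000 genes, 0 to 44 at a mean of at least 10 CPM, 0 to 14 without a filter, 0 to 20 with all columns kept, and 0 to 21 at an adjusted p under 0.05. The reads carry no molecular identifiers, so they are not independent molecules, and of 23 pairs of libraries Sesn2 was above 3 counts in only 1 library of 9, Asns of 6, Trib3 and Slc7a5 of 5 and Ddit4 of 2.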
